A study of Mus musculus with 3 samples.

Results

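The platelet-derived growth factor (PDGF) system was represented by 4 ligand genes (Pdgfa, Pdgfb, Pdgfc and Pdgfd) and 2 receptor genes (Pdgfra and Pdgfrb). These 6 of 28076 genes on the array were taken by name, and all 12 of their probes are described, out of 41156 probes kept. The study sorted stromal cells of the mesenteric lymph node of wild type mice of strain C57BL/6NCrl, untreated as far as the labels say, with age and sex not given in the sources used here. Fibroblastic reticular cells (FRC), the collagen-producing cells of the node's scaffold, were gp38-positive and CD31-negative, lymphatic endothelial cells (LEC) carried both proteins, and blood endothelial cells (BEC) carried CD31 without gp38. All 3 populations had been depleted of CD45-bearing and CD24-bearing cells, and the labels give a mean sorted purity of 88% ± 1.5 with no word on the number of mice or sorts pooled. Each population had 1 array, so no difference reported here has a replicate check and no p-value was computed.

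PDGFs are secreted as dimers that activate paired receptor tyrosine kinases. The A, B and C chains bind the alpha receptor, the B and D chains bind the beta receptor, and the C and D chains are secreted in a latent form that proteases must cleave. In blood vessels, PDGF-B from endothelial cells recruits mural cells (pericytes and smooth muscle cells) that carry the beta receptor, and fibroblasts commonly carry both receptors. The comparisons address which of the sorted populations held the RNA of each ligand and which held that of each receptor.

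Readings rest on 60-base probes, and 3 of them are printed because they give the second reading against which the brighter probe of Pdgfa, Pdgfd and Pdgfra is set below. Each has a reading frame without a stop codon, and is given 5′ to 3′ in the orientation of the array file. On mouse build mm9, the Pdgfa probe lies at chr5:139455132-139455191 on the minus strand, the Pdgfd probe at chr9:6376926-6376985 on the plus strand and the Pdgfra probe at chr5:75559613-75559672 on the plus strand. No annotation of exons or UTRs on mm9 was used.
Pdgfa: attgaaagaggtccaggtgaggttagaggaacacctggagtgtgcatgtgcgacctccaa
Pdgfd: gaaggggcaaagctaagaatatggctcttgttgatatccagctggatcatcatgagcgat
Pdgfra: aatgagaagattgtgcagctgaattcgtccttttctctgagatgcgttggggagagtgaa

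A level is log2 of a probe's processed intensity relative to the 75th percentile of its array, so 0 is that percentile and levels of different probes are not comparable with each other. The 75th percentile was 387 intensity units for FRC, 268 for LEC and 361 for BEC, and about 60% of probes on each array (59.7% to 60.5%) were well above background. The ± beside a difference is the scanner software's own error, which covers the spot and not the mice, the sort or the labelling. A gene was called higher at 4-fold or more, and where the dimmer array was not well above background the fold is a lower bound set from the lowest signal well above background there. In the order FRC, LEC, BEC, the gate gene Pecam1 (CD31) read -4.04, 2.33 and 4.02, and Pdpn (gp38) read -0.83, -1.19 and -3.81, as gated. Ptprc (CD45) read -2.36, -1.59 and 0.22 and Cd24a read 1.61, 3.40 and 3.89, so RNA of the proteins sorted against was present and highest in BEC. Of 18 FRC markers, 13 were higher in FRC than in LEC and 13 than in BEC. Of LEC markers, 10 of 15 were higher in LEC than in BEC, and 10 of 15 BEC markers were higher in BEC than in LEC. Among all genes compared, the shares in that order were 5.93%, 7.57%, 3.39% and 3.38%. These lists were chosen with earlier results of these data known, so the counts are no independent check of the sorts.

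**Figure D1:**
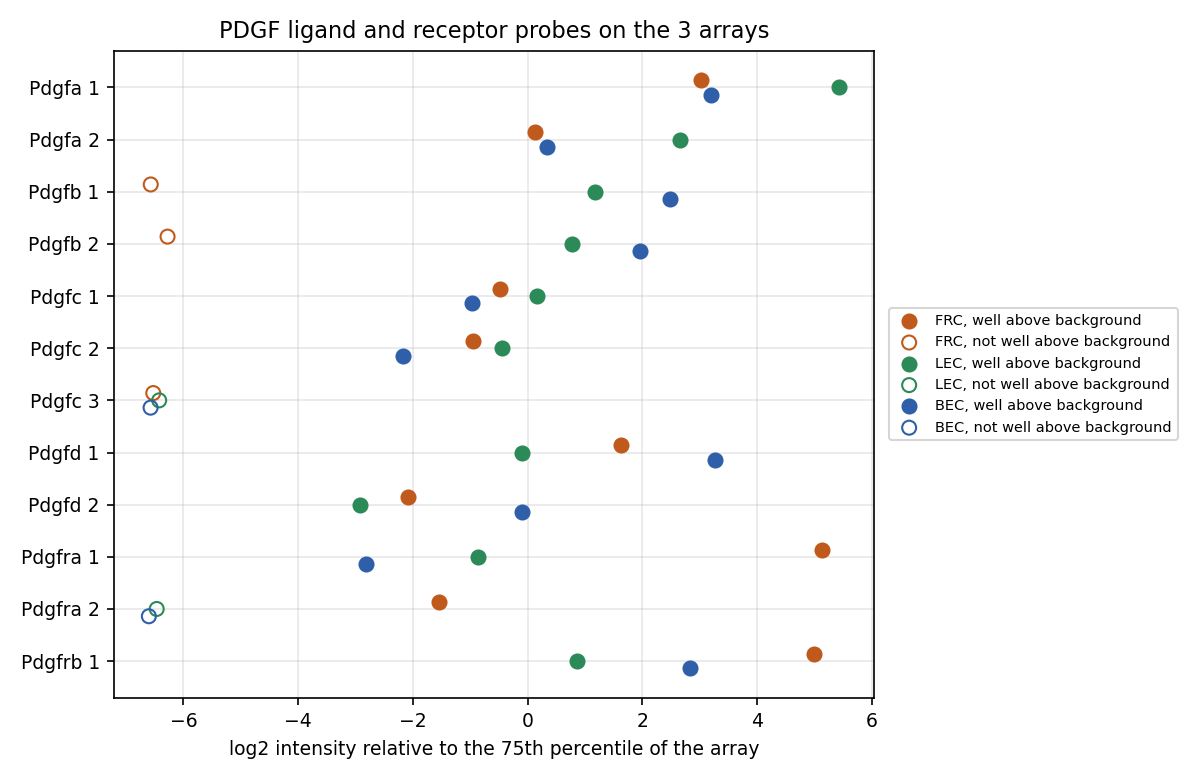
Level of each PDGF ligand and receptor probe (log2 intensity relative to the array's 75th percentile, horizontal axis) on the FRC, LEC and BEC arrays, 1 array each; filled points are well above background and open points are not, and points of a probe are offset vertically so that all can be seen. Number 1 marks the brightest probe of a gene: the FRC points of Pdgfra and Pdgfrb lie at 5.14 and 4.99, to the right of both endothelial arrays, and the FRC points of both Pdgfb probes are open.

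Both receptor RNAs were highest in FRC. Pdgfra, the alpha receptor, read 5.14 in FRC, -0.86 in LEC and -2.82 in BEC with its brighter probe, at chr5:75593888-75593947. FRC stood far above both endothelial arrays, and BEC was the lowest. FRC exceeded LEC by 64.1-fold (LEC minus FRC -6.00 ± 0.21 on the log2 scale) and BEC by 249.6-fold (BEC minus FRC -7.96 ± 0.23). Among all genes higher in FRC, Pdgfra ranked 8 against LEC and 8 against BEC. In single-array bulk RNA, fewer cells of a type and less RNA per cell cannot be told apart, here and in all that follows.

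This Pdgfra probe was spotted 10 times, and 9 spots were kept. Their intensity ran from 13250 to 14068 in FRC, from 141 to 163 in LEC and from 43.7 to 57.6 in BEC, so the spots of the 3 arrays did not overlap. The LEC level was 3.90-fold above the BEC level (1.96 ± 0.23 on the log2 scale), just under the 4-fold threshold, and the log2 difference ran from 1.13 with normexp background correction to 2.01, past the threshold, with arrays scaled over probes well above background on all 3. The second Pdgfra probe, printed above, lies 34275 bases upstream and read -1.54 in FRC, and was not well above background in LEC or BEC. With it the excess in FRC was at least 6.29-fold over LEC and at least 7.13-fold over BEC, the same direction with a much lower bound.

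FRC markers were detected on the endothelial arrays, so their values stand beside Pdgfra. All 18 were well above background in LEC and 17 in BEC, with a summed level of 11.9 in FRC, 8.40 in LEC and 9.50 in BEC. The BEC sum was led by Ccl21a and Cd34, which other marker lists also hold. Over the 15 FRC markers on no other list the summed level was 11.7 in FRC, 8.01 in LEC and 6.17 in BEC, the same order as Pdgfra. The collagen gene Col1a1 read 8.35 in FRC, 3.09 in LEC and 2.07 in BEC. Lum, which encodes the matrix proteoglycan lumican, read 8.02, 2.49 and 0.59. Between LEC and BEC, 5 FRC markers were higher in LEC and 2 in BEC, against 3.39% and 3.38% of all genes compared. The part of FRC-like RNA in the endothelial readings of Pdgfra was not tested.

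Pdgfrb, the beta receptor, read 4.99 in FRC, 0.86 in LEC and 2.83 in BEC with its single probe, at chr18:61244595-61244654. FRC was highest as for Pdgfra, but the order of the endothelial arrays was the opposite one, with BEC above LEC. FRC exceeded LEC by 17.5-fold (LEC minus FRC -4.13) and BEC by 4.47-fold (BEC minus FRC -2.16). The BEC level was 3.92-fold above the LEC level, again just under the threshold. Against LEC, Pdgfrb ranked 264 among genes higher in FRC, and against BEC it ranked 1300, so its excess over BEC was within the range of many genes.

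Mural cells carry Pdgfrb, and cells with neither gp38 nor CD31 fall outside all 3 gates, but the sorts were not pure, so mural markers stand beside Pdgfrb. Of 15 mural markers on the array, 15 were well above background in FRC, 14 in LEC and 14 in BEC, with a summed level of 7.38, 6.33 and 7.17. Their median level was 2.08, -0.12 and 0.61, so FRC and BEC lay farther apart by the median than by the sum. The BEC sum was led by Tagln, Mcam and Acta2, of which Acta2 read 5.48, 5.67 and 5.17 in FRC, LEC and BEC. In FRC over LEC, 6 were higher and 2 lower, and in FRC over BEC, 6 were higher and 3 lower. Those 3 were Higd1b, Mcam and Cnn1, the last 8.13-fold higher in BEC. Among all genes compared, the shares in the same order were 5.93% and 4.85%, and 7.57% and 6.56%. The pericyte potassium channel genes Abcc9 and Kcnj8 were both higher in FRC than in the endothelial arrays: Abcc9 read 2.18 in FRC, -2.62 in LEC and -1.97 in BEC. The pericyte gene Higd1b was instead highest in BEC, with BEC at -0.29, LEC at -2.85 and FRC at -3.51. Cspg4, which encodes the pericyte proteoglycan NG2, stayed within 4-fold on all 3 arrays, from -1.26 to -0.56.

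Between the endothelial arrays, where Pdgfrb was higher in BEC, 4 of 14 mural markers compared were higher in BEC and 1 in LEC. Those in BEC were Notch3 (4.59-fold), Higd1b (5.87-fold), Tagln (4.17-fold) and Mcam (6.95-fold), of which Mcam is also an endothelial gene. The 1 in LEC was Rgs5, at 5.11-fold. Among all genes compared, 3.38% were higher in BEC and 3.39% in LEC. The part of mural cell RNA in the Pdgfrb readings was not tested.

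**Figure D2:**
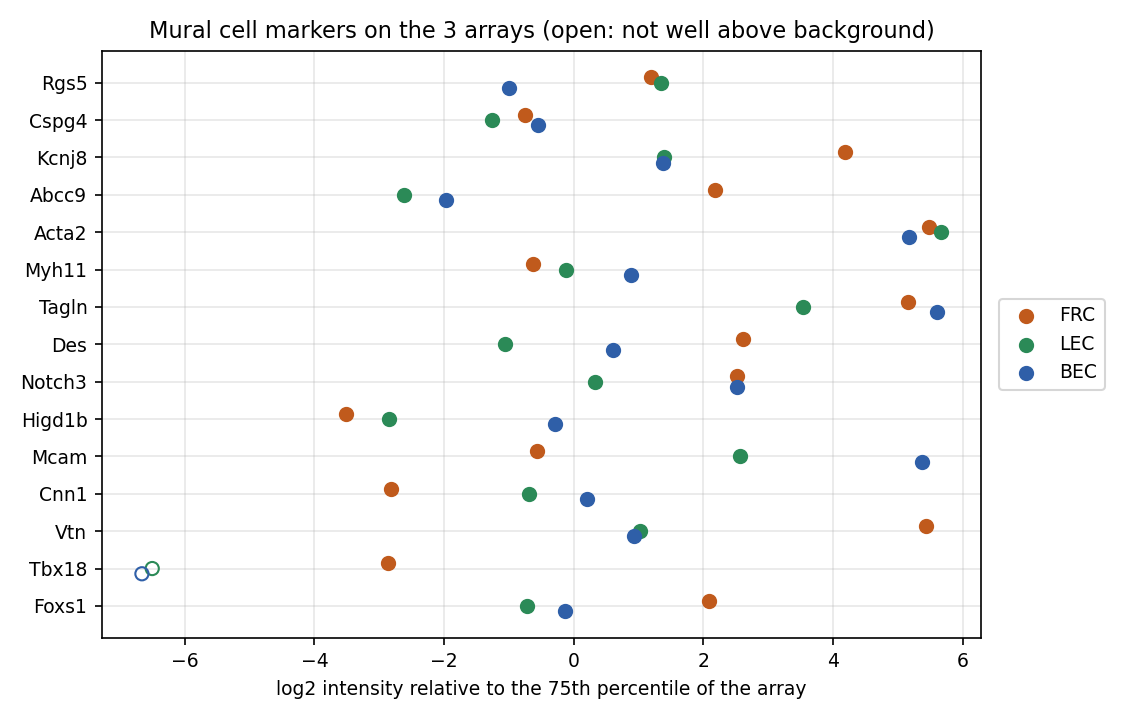
Level (log2 intensity relative to the array's 75th percentile) of 15 mural cell markers on the FRC, LEC and BEC arrays, 1 array each, with open points not well above background. Abcc9, Kcnj8 and Vtn lie farthest right in FRC, while Mcam and Higd1b lie farthest right in BEC.

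Among the ligands, Pdgfb was the one found in the endothelial arrays and not above background in FRC. Its brighter probe, at chr15:79826327-79826386, read 1.17 in LEC and 2.49 in BEC, and had an intensity of 4.08 in FRC, where the lowest signal well above background was 19.7. The excess over FRC was at least 44.2-fold for LEC and at least 109.7-fold for BEC. BEC was 2.48-fold above LEC, which is under 4-fold. The second probe, 811 bases away, gave at least 33.7-fold, at least 76.1-fold and 2.26-fold in the same order, so both probes placed BEC first and LEC second.

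Platelets store PDGF-B, and arterial and sprouting endothelium makes it, so both marker lists stand beside Pdgfb. Of 10 platelet markers on the array, 6 were well above background in FRC, 7 in LEC and 7 in BEC, with a summed level of 1.68, 4.41 and 3.24. Over the 9 on no other list the summed level was 1.64, 3.69 and 3.20. The median level of the 10 was instead highest in BEC, at -3.46, -3.24 and -2.98. Pf4, the platelet chemokine, read 1.30 in FRC, 3.57 in LEC and 3.05 in BEC, so it was highest in LEC. Ppbp, another platelet chemokine gene, was 4.63-fold higher in BEC than in LEC, at -1.82 and -4.03, and not well above background in FRC. Between the endothelial arrays, 2 platelet markers were higher in LEC (Gp1ba and Itga2b, the latter also an LEC marker) and 1 in BEC (Ppbp). These were of 8 compared, against 3.39% and 3.38% of all genes compared. The platelet glycoprotein gene Gp5 was not well above background on any array. Of 14 arterial and tip cell genes, 10 were higher in BEC than in FRC and 6 in LEC than in FRC. Among all genes compared, the shares were 6.56% and 4.85%. The list names endothelial genes and FRC were gated as CD31-negative, so the counts against FRC are not specific to arterial or tip cells. Between the endothelial arrays, 8 were higher in BEC and none in LEC, against 3.38% and 3.39% of all genes compared. The list's median LEC minus BEC difference was -2.47 on the log2 scale. Macrophages also make PDGF-B. Of 15 leukocyte markers 12 were well above background in FRC, 14 in LEC and 14 in BEC. Their summed level was 3.44, 4.26 and 4.70, led in BEC by Coro1a and Cd79b. The macrophage genes Lyz2, Cd68, Adgre1 and Csf1r instead read higher in LEC than in BEC, all by less than 4-fold. Lyz2 read 2.43, 3.23 and 2.09 in FRC, LEC and BEC. Itgam was not well above background on any array. The part of platelet or leukocyte RNA in the Pdgfb readings was not tested.

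Pdgfa was called higher in LEC than in both other populations, the only ligand of which this held. Its brighter probe, at chr5:139453029-139453088, read 3.02 in FRC, 5.44 in LEC and 3.20 in BEC. LEC stood apart and the other 2 arrays lay within 1.14-fold of each other, a difference of 0.18 ± 0.20 that its error spans. LEC exceeded FRC by 5.34-fold (2.42 ± 0.20 on the log2 scale) and BEC by 4.70-fold (2.23 ± 0.20). The second Pdgfa probe, printed above, gave 5.79-fold and 4.99-fold, so the probes nearly coincided. Unlike Pdgfb, Pdgfa was therefore read on all 3 arrays, FRC included. Genes listed for each endothelium were also read on the other endothelial array. Against FRC, 10 of 15 LEC markers were higher in BEC, and 11 of 15 BEC markers were higher in LEC. Among all genes compared, the shares were 6.56% and 4.85%. Both lists include genes not higher in their own population. Kdr, listed for BEC, read 6.72 in LEC and 6.18 in BEC, and Sox18, listed for LEC, read 5.42 and 6.70. The part of RNA of the other endothelium in the Pdgfa and Pdgfb readings was not tested.

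Pdgfd, like Pdgfb, was highest in BEC, but it was well above background in every population. Its brighter probe, at chr9:6378717-6378776, read 1.62 in FRC, -0.10 in LEC and 3.28 in BEC. The order was BEC, FRC, LEC. BEC exceeded LEC by 10.4-fold, rank 179 among genes higher in BEC than in LEC, while BEC over FRC (3.14-fold) and FRC over LEC (3.31-fold) missed the 4-fold threshold. The second probe, printed above, kept the order with 7.09-fold, 3.95-fold and 1.80-fold.

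Pdgfc differed least. Its brightest probe, at chr3:81017572-81017631, read -0.48 in FRC, 0.16 in LEC and -0.97 in BEC. No pair of arrays was 4-fold apart: LEC exceeded BEC by 2.19-fold, LEC exceeded FRC by 1.56-fold and FRC exceeded BEC by 1.40-fold. A second probe gave the same order with 3.32-fold between LEC and BEC. The third Pdgfc probe, at chr3:81014382-81014441, was not well above background on any array and gives no fold.

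**Figure D3:**
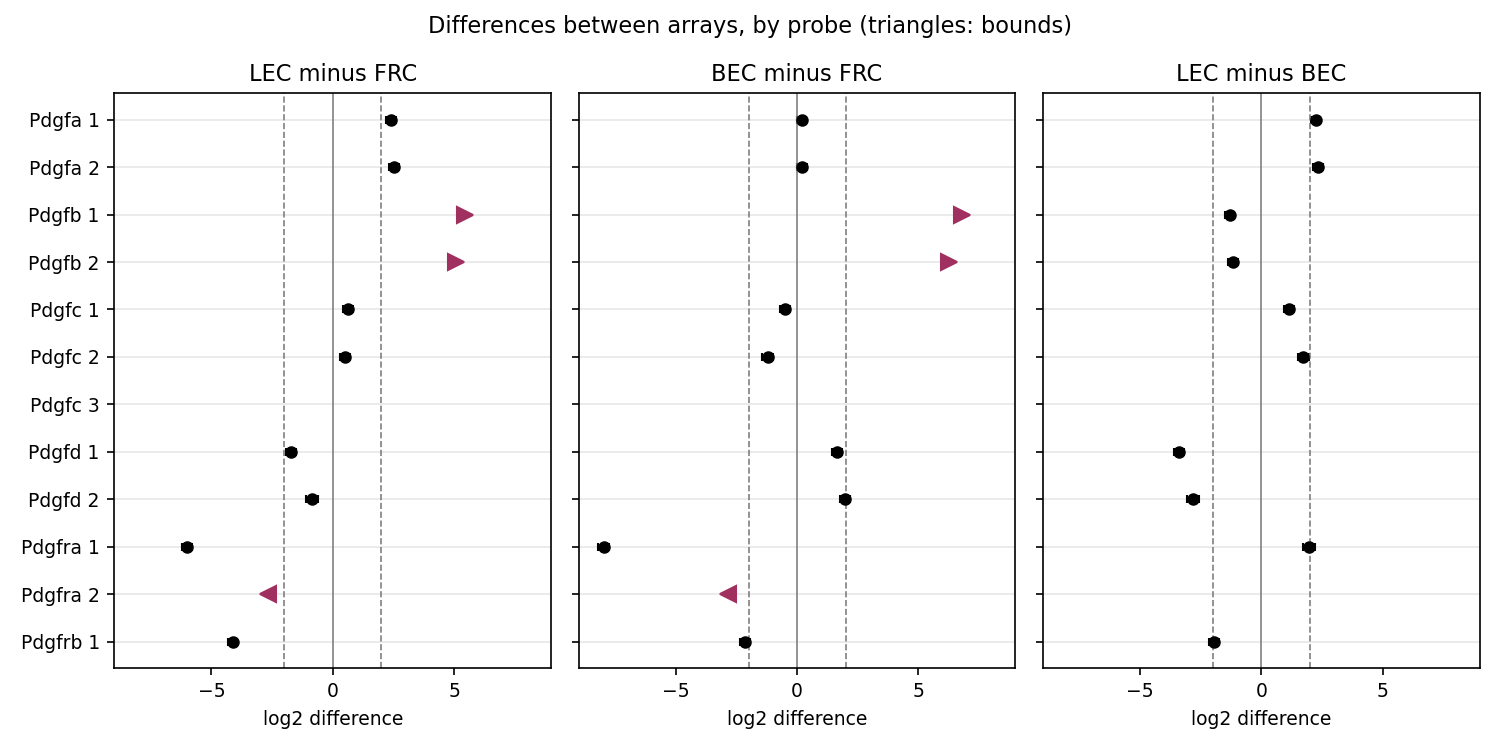
Log2 difference of each PDGF probe in the 3 comparisons, with the scanner software's error as bars and dashed lines at the 4-fold threshold and triangles for lower bounds on the size; the third Pdgfc probe has no value. Pdgfb lies beyond the threshold on the endothelial side of FRC and Pdgfra and Pdgfrb on the FRC side.

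Counted together, 2 of the 6 genes were higher in LEC than in FRC (Pdgfa and Pdgfb), against 4.85% of the 18440 genes compared, and 2 were higher in FRC (both receptors), against 5.93% (10.8% in either direction). In BEC against FRC, 1 was higher in BEC (Pdgfb), against 6.56% of 18830 genes, and 2 in FRC (both receptors), against 7.57% (14.1% in either direction). In LEC against BEC, 1 was higher in LEC (Pdgfa), against 3.39% of 18322 genes, and 1 in BEC (Pdgfd), against 3.38% (6.78% in either direction). With 6 genes, 1 call is already a larger share than any of these array-wide shares. The counts therefore say nothing on an excess. The median log2 difference of the 6 was -0.54, -0.15 and -0.09 in the 3 comparisons, beside 0.02, 0.09 and -0.07 over all genes compared.

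Among the genes listed as processing, binding or presenting PDGFs, more were higher in FRC than in LEC. The list was chosen with earlier results of these data known, so its counts are no independent result. Of 17 such genes, 6 were higher in FRC and 2 in LEC, and against BEC 5 were higher in FRC and 2 in BEC. Between the endothelial arrays, 1 was higher in LEC and 2 in BEC. Over all genes compared, the shares in the same order were 5.93% and 4.85%, 7.57% and 6.56%, and 3.39% and 3.38%. On the log2 scale the list had a median of -1.30 in LEC relative to FRC, -0.30 in BEC relative to FRC and -0.22 in LEC relative to BEC. Pcsk5 and Pcsk6, proprotein convertases that can cleave PDGF-A and PDGF-B precursors, were higher in FRC than in LEC by 7.73-fold and 9.87-fold, and than in BEC by 17.0-fold and 41.2-fold. The other convertase genes of the list, Furin and Pcsk7, were instead highest in BEC and stayed within 4-fold. In FRC, LEC and BEC, Furin read 2.60, 2.46 and 3.46 and Pcsk7 read 0.29, 1.04 and 1.52. Plau, the urokinase that activates latent PDGF-D, read -0.11 in FRC and was not well above background in LEC or BEC. Plat, the tissue plasminogen activator that activates PDGF-C, read 4.83, 4.77 and 3.79 in FRC, LEC and BEC, all within 4-fold.

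Lrp1, an endocytic receptor that forms a complex with the beta receptor, read 4.22 in FRC, -0.50 in LEC and -0.77 in BEC. It was 26.4-fold and 31.8-fold higher in FRC. The co-receptor gene Nrp1 was 11.8-fold higher in FRC than in LEC and 11.5-fold higher in BEC than in LEC, and so, like Pdgfrb, was lowest in LEC. For Nrp2 the excess over FRC was 4.09-fold in LEC and 5.72-fold in BEC. Slc9a3r2, a scaffold protein that binds the receptors' tails, was 21.2-fold higher in BEC than in FRC.

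Genes acting downstream of the receptors were called at a share near that of all genes in the comparisons with FRC (10.8% and 14.1%, given above). Of 37 signalling genes, 32 were within 4-fold between LEC and FRC, 32 between BEC and FRC and 36 between LEC and BEC, with medians of 0.36, 0.23 and 0.02. The adaptor gene Grb7 was among the 5 called, exceeding FRC by 19.7-fold in LEC and 6.32-fold in BEC. Of 18 negative regulators, 4 were higher in FRC than in LEC (Ptprj, Spry2, Spry4 and Spred1) and none in LEC, and 3 were higher in BEC than in LEC. The shares over all genes compared were 5.93%, 4.85% and 3.38%. The medians were -0.48, 0.21 and -0.16 in the same comparisons. Spry4, a feedback inhibitor of receptor tyrosine kinase signalling, read -0.93 in FRC, -3.31 in LEC and 1.31 in BEC.

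Of 18 growth factor response genes, 3 were higher in BEC than in FRC and 1 in FRC, against 6.56% and 7.57% of all genes compared. Those in BEC were Egr3, Hbegf and Ier3, and the medians were 0.09, 1.03 and -0.81 in the same comparisons. The 1 in FRC was Has2, a hyaluronan synthase gene, at 1.94 in FRC, -1.34 in LEC and not well above background in BEC, which gives at least 80.0-fold between FRC and BEC. Between LEC and FRC, 2 response genes were higher in LEC and 1 in FRC, against 4.85% and 5.93%. Between LEC and BEC, 1 was higher in LEC and 3 in BEC, against 3.39% and 3.38%. Over the 4 lists together, 90 genes, 13 were higher in FRC and 7 in LEC between LEC and FRC. Between FRC and BEC, 9 were higher in FRC and 9 in BEC. Between LEC and BEC, 8 were higher in BEC and 3 in LEC. Over all genes compared, the shares in the same order were 5.93% and 4.85%, 7.57% and 6.56%, and 3.38% and 3.39%.

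**Figure D4:**
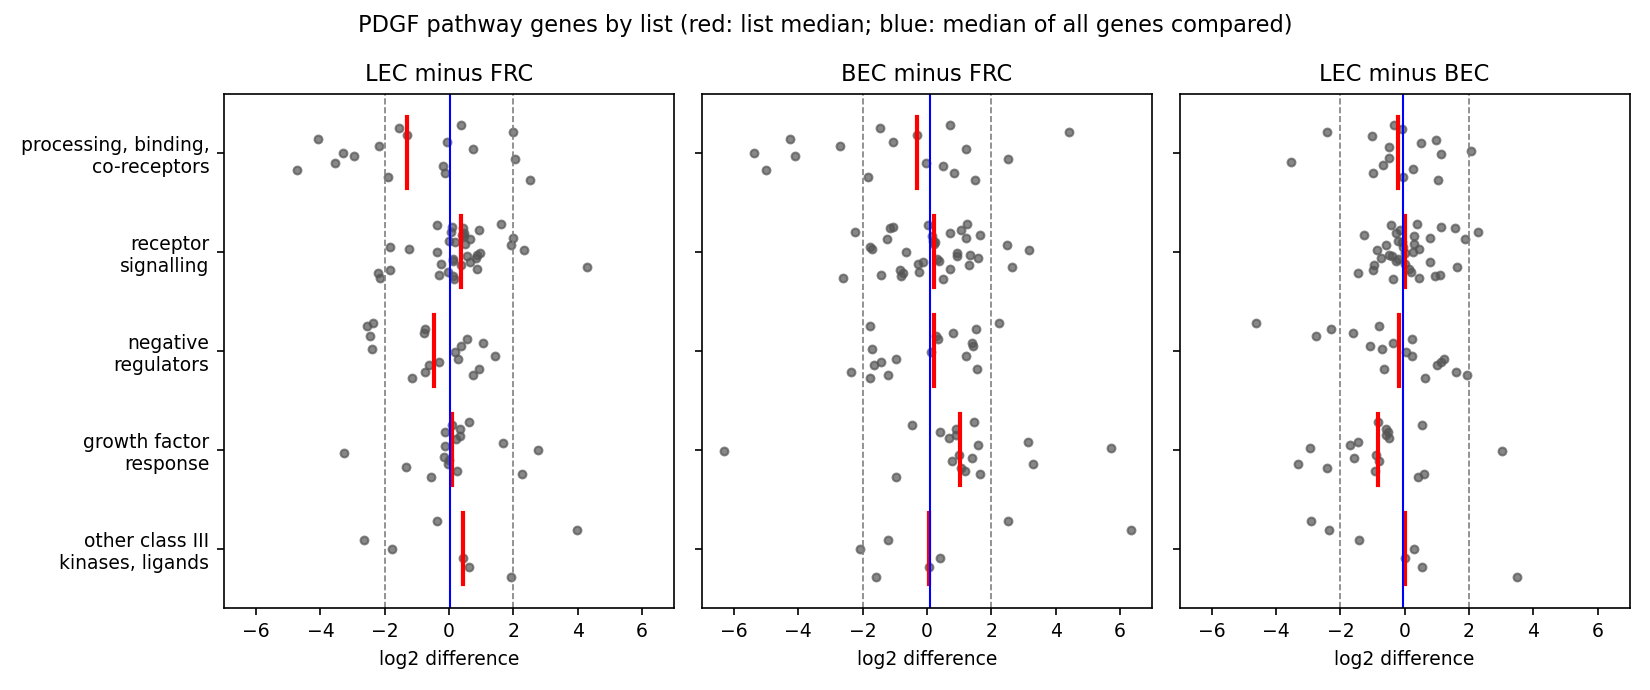
Log2 difference of each gene of the 4 PDGF pathway lists, and of the other kinases and ligands of the receptors' class, in the 3 comparisons, 1 dot per gene with bounds drawn as plain dots; red marks show each list's median, the blue line the median of all genes compared and dashed lines the 4-fold threshold. Of the 37 signalling genes, 32, 32 and 36 lie between the dashed lines, and the leftmost dots of the processing and binding list lie on the FRC side.

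The genes nearest in pattern to each member were found by the distance between log2 levels centred on their mean over the 3 arrays, among 12652 genes well above background on all 3. With 3 arrays such likeness is weak. Nearest to Pdgfrb was Nkx2-3, a homeobox gene, at a distance of 0.05 log2 units, with differences of -4.07, -2.17 and -1.90. Nearest to Pdgfra were Clec3b and Lum, at 0.33 and 0.41. Nearest to Pdgfa was Pard6g at 0.02, to Pdgfd Stom at 0.10, with Il6 also among the nearest 5 at 0.14, and to Pdgfc Acvr1 at 0.01. Pdgfb was not well above background in FRC and was not matched.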

How the data were processed

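The deposited scanner files hold intensity values of 43379 non-control spots of single-colour Agilent mouse arrays, 1 array per population and all on 1 slide, per the file headers. Per the submitters' processing notes they were made with Agilent Feature Extraction 10.7.3.1, with background subtraction and detrending inside each array and no scaling across arrays per the file headers. Per the labels' protocols, 30 to 50 ng of total RNA was amplified in 1 round and labelled. Spike-in controls gave a dose-response slope (both axes logged) of 0.821 on the FRC array, 1.00 on LEC and 0.919 on BEC, per the file headers, so equal RNA differences need not give equal log2 differences on each array. No spot was saturated.

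The 226 spots marked as outliers on any array were left out (18 probes lost), replicate spots were averaged, and log2 values were centred on the array's 75th percentile (Python 3.11.15, pandas 2.3.3, numpy 2.4.6). Gene names were updated through accessions in a RefSeq table of another build (GRCm38.p6), used for names only, which matched 26681 probes. Each gene was represented by the probe whose mean level was highest. A gene was compared where any probe was well above background on either array. Over 245 probes spotted 10 times, the median SD between spots was 0.05 to 0.06 on the log2 scale. The scanner software's error assumes a multiplicative part of 10%. Number of arrays, not depth, limits precision.

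The named genes were all member probes, the sort gate genes, members of the pathway and marker lists and the 5 genes nearest in pattern. The members and lists were chosen with earlier results of these data known. Alternatives were the percentile over probes well above background on all arrays, quantile normalization, normexp with offset 50 and quantile normalization (limma 3.58.1, R 4.3.3), the authors' deposited series matrix of intensity values, the median over a gene's probes, no filter on dim probes and a 2-fold threshold. The comparison code was tested on simulated data.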

Additional observations from a re-analysis of the deposited data

How the results depend on the processing

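No probe of the 6 PDGF genes changed direction under any of the 5 scalings, and their calls stayed as reported except Pdgfra in LEC against BEC, called at 2.01 on the log2 scale with the percentile over probes well above background on all arrays. Of 32 probe differences, 32 moved by less than the error with that percentile, 31 with quantile normalization, 31 with the authors' matrix and 16 with normexp. With the median over probes, 11 of 18 gene differences did. The authors' matrix had the same median, 40.18, on all 3 arrays, and gave nearly the same differences as quantile normalization. It is therefore no separate check from that setting. Bounds have no scanner error of their own, and the median error of the measured PDGF probe differences, 0.204, was used for them. With normexp, Pdgfra in LEC against BEC was 1.13, the Pdgfb bounds became 3.51 (LEC minus FRC) and 4.67 (BEC minus FRC), and the second Pdgfra probe's bounds became -1.28 and -1.52, under 4-fold. Under it, 580 genes were higher in LEC and 650 in FRC, 689 in BEC and 843 in FRC, and 308 in LEC and 318 in BEC in the 3 comparisons, and of pathway genes 3 were higher in LEC and 8 in FRC, and 0 in LEC against BEC. At 2-fold these were 2381 and 2459, 3138 and 3104, and 2009 and 1863 genes, and pathway genes 13 (LEC) and 21 (FRC), 29 (BEC) and 24 (FRC), and 15 (LEC) and 16 (BEC), with 6 of the 6 PDGF genes apart between LEC and BEC. With no filter on dim probes, 1019 genes were higher in LEC than in BEC. The cause was not tested. No paired analysis was possible because each population has 1 array and no replicate numbers. Single arrays leave the spread between mice and sorts unmeasured, and probes near background give bounds only.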

Other observations

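The PDGF receptors belong to class III of the receptor tyrosine kinases, and the array held 7 other genes of that class and its ligands. Kit, the stem cell factor receptor gene, read -3.60 in FRC, and stood 15.7-fold higher in LEC, at 0.38, with BEC 80.9-fold above FRC, at 2.74. Its ligand gene Kitl read 0.40, 0.01 and 2.93 in FRC, LEC and BEC, with BEC 5.80-fold above FRC and 7.58-fold above LEC. Csf1, the macrophage colony-stimulating factor gene, read 4.14, 6.06 and 2.55 in that order, so LEC exceeded BEC by 11.4-fold. Il34, another ligand of the Csf1 receptor, was 6.22-fold higher in FRC than in LEC. Flt3l, the ligand gene of Flt3, was 4.19-fold higher in FRC than in BEC. Of the 7, 1 was higher in LEC and 1 in FRC in that comparison, 2 in BEC and 1 in FRC, and 1 in LEC and 2 in BEC. The shares over all genes compared were 4.85% and 5.93%, 6.56% and 7.57%, and 3.39% and 3.38% in the same order.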
